A study of Mus musculus with 24 samples.

Results

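Gapmer 1 against Dnm3os was compared with the control gapmer in the lungs of mice that had received PBS and no injury. The comparison takes the 3 arrays titled for gapmer 1 and the 3 titled for the control gapmer among the PBS samples, 6 of the 24 arrays of the series, and all 20728 named genes of the array with 1 feature each, the brightest over the 24 arrays. All mice were C57BL/6 and 9 to 12 weeks old. A further 3 PBS arrays with gapmer 3, a different gapmer against the same RNA, and 5 bleomycin arrays with each of the 3 gapmers entered the same fit. Bleomycin is a drug that breaks DNA and injures the lung. Total RNA came from whole lung, so a lower level of a gene can mean fewer cells of a type or less RNA per cell, and these cannot be told apart. The labels number the samples of a group and do not tie them to separate animals, and the p-values reflect only how far these samples differ, which may be technical. The labels give no dose, route, interval or hour of sampling.

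Dnm3os is a long noncoding RNA transcribed from the opposite strand of an intron of Dnm3, a gene for a membrane-cutting GTPase. It is the precursor of miR-199a and miR-214, microRNAs of mesenchymal cells that are known from fibrotic lung. A gapmer is a short oligonucleotide with a DNA centre and modified ends. Its pairing with an RNA recruits RNase H, which cuts the RNA. The gapmers' own sequences are not printed here.

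The microRNAs are shown because they are the processed products of the target. RefSeq places 4 mature microRNAs in 2 hairpins within Dnm3os on the plus strand of chromosome 1 (GRCm38.p6), at chr1:162217844-162217866, chr1:162217883-162217904, chr1:162223397-162223418 and chr1:162223438-162223459 in the order below. Capitals mark the seed, bases 2 to 8, which pairs with target RNAs, and no 2 of the 4 seeds are the same.
miR-199a-5p: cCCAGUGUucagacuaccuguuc
miR-199a-3p: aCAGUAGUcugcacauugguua
miR-214-5p: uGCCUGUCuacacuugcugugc
miR-214-3p: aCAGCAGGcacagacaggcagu

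The deposited values are log2 intensities, quantile-normalized by the authors, so a difference of 1 is a 2-fold difference. Over the 24 arrays they ran from 5.03 to 18.25, the array medians lay between 6.485 and 6.495, and a level under 6.11, the 25th percentile of gene means, is called low. Arrays of the same PBS group correlated at 0.992 to 0.995 (control), 0.995 to 0.996 (gapmer 1) and 0.982 to 0.991 (gapmer 3) across genes. With 3 arrays a group the precision is limited, and the 95% interval of a PBS difference was ± 0.24 for the median gene. Lung markers were high in all 6 arrays compared, with the surfactant gene Sftpc at 17.94 or above, the club cell secretoglobin Scgb1a1 at 17.93 to 18.25 and the type 1 cell receptor Ager at 14.02 to 14.63. So were markers of skeletal and heart muscle and of fat. The skeletal muscle actin Acta1 lay at 12.81 to 14.32, the atrial and pulmonary vein myosin Myh6 at 14.60 to 15.77 and the fat cell hormone Adipoq at 11.12 to 13.28, while the thyroid gene Tg (6.51 to 6.94), the parathyroid gene Pth (5.46 to 5.74) and the liver gene Alb (6.06 to 6.50) were near the low end of the scale.

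The target was measured by 3 features. The brightest stood at 6.37, 6.27 and 6.39 with control and at 5.76, 5.85 and 6.06 with gapmer 1. All gapmer 1 arrays lay below all control arrays, and all of them were low, so the size of the difference is a lower bound. The difference of -0.45 (SE 0.14) was not called (limma adjusted p = 0.0882, or 0.0504 with the replicate number as a block). A two-sided exact permutation test gave p = 0.1, the smallest that 3 against 3 arrays allow, and 0.3 after adjustment over the 3 features. The second feature stood at 5.86, 5.90 and 5.80 with control and 5.88, 5.78 and 5.88 with gapmer 1, a difference of -0.01 (exact permutation p = 0.9). The remaining feature stood at 5.78, 5.80 and 5.93 against 6.05, 5.71 and 5.81, a difference of 0.02 (exact permutation p = 0.8). These 2 features were low in all 6 arrays, where a fall could not be measured. Dnm3, the gene on the other strand, stood at 7.52, 7.20 and 7.11 with control and 8.06, 7.21 and 7.72 with gapmer 1, groups that overlap (difference 0.38, SE 0.25, limma adjusted p = 0.445).

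Of 16 measured genes that have been described as targets of miR-199a or miR-214, none was called in either direction (limma). Their median difference was -0.08, beside -0.03 for all genes. Itch, a ubiquitin ligase, had the smallest p of the list, with 10.86, 10.57 and 11.09 in control arrays and 10.48, 10.50 and 10.51 with gapmer 1 (limma adjusted p = 0.0806). Cav1, the caveolin gene known as a miR-199a-5p target in lung fibroblasts, differed by -0.17 (SE 0.15). The microRNAs themselves were not analysed here.

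Across all genes 230 were called at a limma adjusted p under 0.05, 1.11% of those tested. Higher with gapmer 1 were 92 genes (0.444%), 29 of them more than 2-fold, and lower were 138 (0.666%), with Per1 alone past 2-fold. The called rises had a median of 0.74 and the called falls of -0.46. The 3 gapmer 1 arrays lay above all 3 control arrays in 91 of the 92 rises and below them in all 138 falls, beside 8.62% and 13.7% of all genes tested. A call from these same arrays favours such a lack of overlap, so these counts add no support. With the replicate number as a block 423 genes were called, 122 higher and 301 lower, and 209 of the 230 were among them. The number of calls depends on the arrays in the fit. It was 684 without control replicate 2 but 11 without control replicate 1, 10 without control replicate 3, and 49, 45 and 85 without gapmer 1 replicates 1, 2 and 3. Fitting only the 6 arrays compared called 68 genes and fitting the 9 PBS arrays called none, with 3145 at an unadjusted p under 0.05. In each of these fits all 230 genes kept their sign and an unadjusted p under 0.05, although 0 to 214 of them stayed called. The 230 were chosen from the same arrays, and where the groups do not overlap these fits cannot change the sign. The kept signs therefore add no support. Trem2, Slc26a4 and 4833418N02Rik were called in 21 of the 22 alternative gene-wise fits and Per1 in 20.

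**Figure D1:**
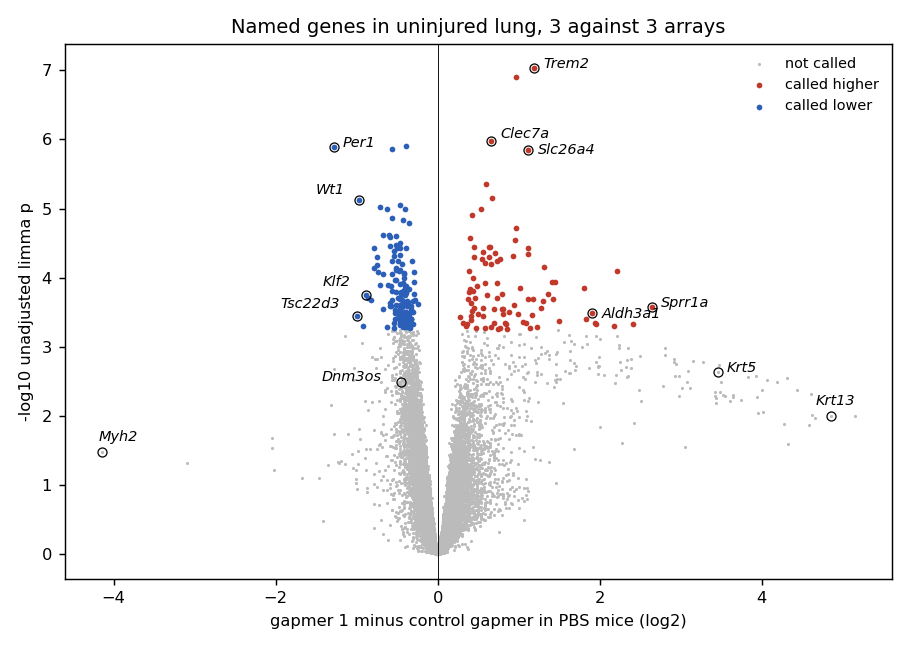
Difference between gapmer 1 and control in PBS mice (x axis, log2) against -log10 of the unadjusted limma p (y axis) for all 20728 genes, with 92 called higher in red, 138 called lower in blue and the rest in grey. Trem2 and Per1 stand at the top on either side, while squamous keratins such as Krt5 and Krt13 and the muscle myosin Myh2 have large differences that were not called.

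Several of the largest called rises are known as genes of cornifying, stratified epithelium, the kind that lines skin and oesophagus. Sprr1a, which encodes a cross-linked protein of the cornified envelope, rose 6.24-fold. Its levels were 8.04, 9.27 and 7.20 with control and 10.60, 11.31 and 10.52 with gapmer 1, with no overlap (log2 2.64, SE 0.60, limma adjusted p = 0.0389). Acer1, an alkaline ceramidase of the epidermis, went from 6.20, 6.44 and 5.61 to 7.72, 8.72 and 8.44 (limma adjusted p = 0.0257), at least 4.63-fold since its control mean of 6.08 was low. Cers3, which makes the very long ceramides of the skin barrier, rose 3.51-fold, from 8.58, 8.65 and 8.03 to 9.80, 10.76 and 10.13 (limma adjusted p = 0.0324), and by 1.00 on the log2 scale when all its features were averaged (limma adjusted p = 0.043). Aldh3a1, an aldehyde dehydrogenase abundant in cornea, rose 3.77-fold from an already high 11.83, 12.50 and 11.44 to 13.61, 14.33 and 13.57 (limma adjusted p = 0.0412). The water and glycerol channel Aqp3 (1.96), the connexin Gjb2 (1.50), the kallikrein-related protease Klk9 (2.18), the thioesterase Them5 (1.94), the acyl-CoA synthetase Acsbg1 (1.83) and 2610528A11Rik (2.41) complete the 10 largest rises on the log2 scale. With the replicate block Sprr1a, Acer1 and Cers3 were still called, and the other 7 were not, with limma adjusted p from 0.0501 (Acsbg1) to 0.0552 (Gjb2). Below these, Tgm1, the transglutaminase that cross-links the cornified envelope, rose by 1.41 and the epidermal caspase Casp14 by 1.36.

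The markers that define squamous and basal epithelium moved with these genes from array to array. All 15 measured members of the list had a positive difference, with a median of 2.64, and 12 had all gapmer 1 arrays above all control arrays, beside 8.62% of all genes, but Sprr1a alone was called. The oesophageal keratin Krt13 stood at 10.14, 11.25 and 5.80 with control and at 13.60, 14.60 and 13.55 with gapmer 1 (difference 4.85, SE 1.72, limma adjusted p = 0.144). Control replicate 3 was low, and with gapmer 3 the levels were 14.74, 5.64 and 10.64, so that 1 gapmer 3 array was as high as gapmer 1 and 1 was low. In the basal cell keratin Krt5, too, control replicate 3 and gapmer 3 replicate 2 were the lowest, with 9.53, 10.01 and 6.66 under control, 11.92, 12.71 and 11.95 under gapmer 1, and 12.52, 7.11 and 8.98 under gapmer 3. Sprr1a itself lay at 7.15 and 8.13 in gapmer 3 replicates 2 and 3, and in replicate 1 within the gapmer 1 range. The mean level of the 15 genes was 8.26, 8.94 and 6.73 in control arrays, 10.08, 10.73 and 10.13 with gapmer 1, and 10.61, 6.80 and 8.25 with gapmer 3. The lung airway also has basal cells. Trp63, their master regulator, differed by 0.35 (12.06, 12.34 and 11.76 against 12.46, 12.36 and 12.38, limma adjusted p = 0.276), with all gapmer 1 arrays above all control arrays. The cornification genes Ivl and Krt6a differed by 0.08 and 0.22. The source of the squamous signal was not tested.

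**Figure D2:**
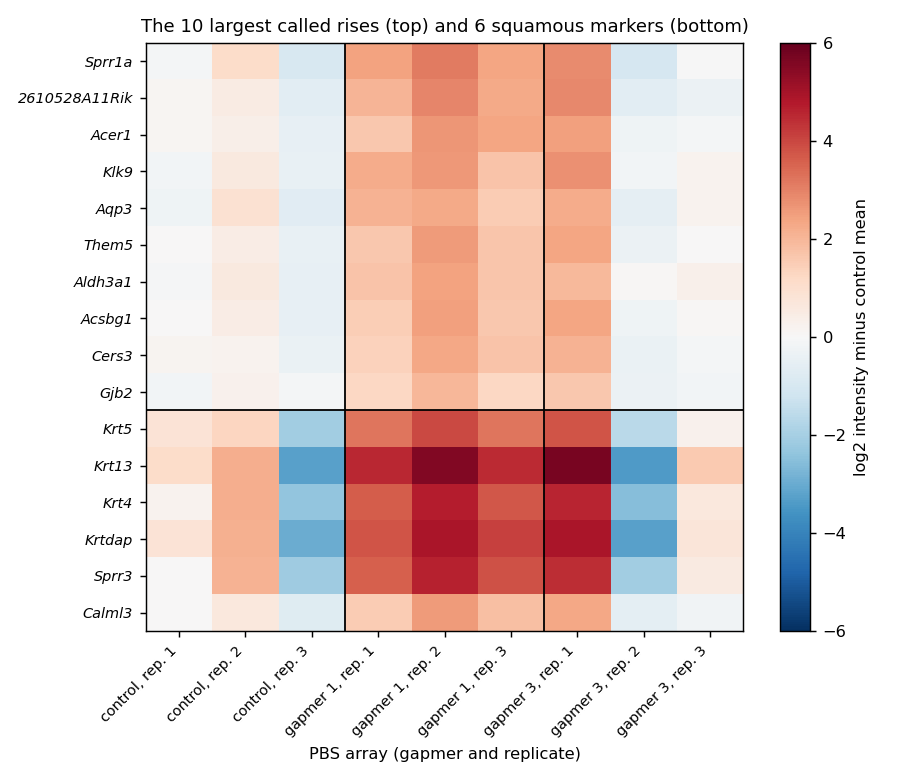
Level of the 10 largest called rises and of 6 squamous markers in each PBS array (columns, gapmer and replicate), as log2 intensity minus the control mean of the gene (colour). The 3 gapmer 1 arrays and gapmer 3 replicate 1 are high in all 16 genes, and control replicate 3 and gapmer 3 replicate 2 are the lowest in Krt5 and Krt13.

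The mean of the squamous list was therefore also entered as a covariate, an alternative chosen after these values were seen. The 10 largest rises, which ran from 1.50 to 2.64, then ran from 0.47 to 0.94, and none was called. Sprr1a is itself a member of the list. The list mean was higher in all gapmer 1 arrays than in all control arrays, so genes that follow it were bound to shrink. The fit therefore shows no cause. The 29 called rises past 2-fold had a median of 1.31 without the covariate and 0.58 with it. The 138 called falls had medians of -0.46 and -0.37, and 0 of them shrank to less than 0.5 of their size. The SE of the differences was wider with this covariate, since the list itself differed between the groups, and 4 genes remained called, namely Trem2, Slc26a4, Itgb2 and 4833418N02Rik. With the mean of the skeletal muscle list as the covariate 551 genes were called, including all 230, and with that of the adipose list 32. The sizes moved little with the adipose covariate: the 29 rises past 2-fold had a median of 1.32 and the 138 falls of -0.46, and none of the 230 shrank to less than 0.5 of its size.

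The smallest p of all genes belonged to Trem2, which encodes a lipid-sensing receptor of macrophages. Its level was 9.94, 9.95 and 9.98 in control arrays and 11.17, 10.76 and 11.49 with gapmer 1, a 2.27-fold rise (log2 1.19, SE 0.15, limma adjusted p = 0.00132). Every gapmer 1 array stood above every control, and the controls lay close together. With the squamous covariate the difference was 1.31 (limma adjusted p = 0.0101). Gpnmb, a glycoprotein of lipid-laden macrophages, rose 1.95-fold, from 8.69, 8.81 and 8.94 to 9.58, 9.54 and 10.23 (limma adjusted p = 0.0195). These 2 of the 18 measured members of the monocyte and interstitial macrophage list were called, beside 0.444% of all genes called higher. Of the 18, 16 had a positive difference, with a median of 0.34, and 9 had all gapmer 1 arrays above all control arrays, beside 8.62% of all genes. Among the others Mmp12, the macrophage elastase, stood at 6.20, 6.14 and 5.95 against 6.86, 6.60 and 7.22 (limma adjusted p = 0.106), and the arginase Arg1 at 6.94, 7.59 and 6.85 against 7.95, 8.50 and 7.98 (limma adjusted p = 0.146). General markers of the lineage were close, with Adgre1 (F4/80) at a difference of 0.00, Csf1r at 0.16 and Plac8 at 0.00. The alveolar macrophage list had no call among 12 genes and a median of 0.01.

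Further myeloid genes among the called rises, chosen here after their values were seen, were smaller in size than that of Trem2. The beta-glucan receptor Clec7a (Dectin-1) went from 12.76, 12.88 and 12.63 to 13.32, 13.33 and 13.59, a 1.58-fold rise (limma adjusted p = 0.00427). The integrin chains Itgb2 (CD18) and Itgax (CD11c) rose by 0.60 (limma adjusted p = 0.0115) and 0.42 (limma adjusted p = 0.016). The chemokine gene Ccl6 rose by 0.45, the pore-forming phagocyte gene Mpeg1 by 0.44, the lysosomal protease Ctsd by 0.44, the inhibitory receptor Cd300lf by 0.54 and the inflammasome adaptor Pycard by 0.58. Neutrophil, T cell, NK cell and B cell lists had 1, 0, 0 and 0 called members of 12, 13, 12 and 10. The 1 was Lcn2, a siderophore-binding protein that epithelium also makes, at 13.84, 13.96 and 13.82 against 14.43, 14.31 and 14.57 (limma adjusted p = 0.0223).

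The other named rises had mixed functions. Slc26a4 (pendrin), an anion exchanger of airway epithelium, rose 2.17-fold, from 9.80, 9.55 and 9.68 to 10.68, 10.94 and 10.76 (limma adjusted p = 0.00427), and by 1.22 with the squamous covariate (limma adjusted p = 0.0479). Cdkn1a, the p21 inhibitor of the cell cycle, rose 1.91-fold, from 10.47, 10.67 and 10.27 to 11.33, 11.48 and 11.39 (limma adjusted p = 0.0223). It was the sole call among 17 genes of the p53 and DNA damage list, whose median was -0.04. Lrg1, a secreted glycoprotein of inflamed vessels, rose by 0.77 (limma adjusted p = 0.0225), and the gelatinase Mmp2 by 0.71 (10.68, 10.74 and 10.26 against 11.27, 11.01 and 11.54, limma adjusted p = 0.0223). No member of the extracellular matrix list of 35 genes was called, and its median was 0.13, with 10 of the 35 above control without overlap, beside 8.62% of all genes, and 3 below, beside 13.7%. The elastin gene Eln had the smallest p of that list, with 9.24, 9.17 and 8.80 against 10.65, 9.99 and 10.94 (difference 1.46, limma adjusted p = 0.0725), and was called with the replicate block (limma adjusted p = 0.035), as was Ltbp1, which tethers latent TGF-beta to the matrix, in the lower direction (-0.36, limma adjusted p = 0.0375). The immediate early genes Fos and Junb were likewise not called (limma adjusted p = 0.0536 and 0.0952) but were called with the block (limma adjusted p = 0.0432 and 0.0311). Fos stood at 9.13, 9.45 and 9.33 against 10.22, 10.73 and 10.59.

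Among the falls the largest was in Per1, a period gene whose protein represses its own transcription in the circadian clock. It stood at 14.21, 14.06 and 14.06 in control arrays. With gapmer 1 it stood at 12.89, 12.41 and 13.19, a 2.43-fold fall (log2 -1.28, SE 0.19, limma adjusted p = 0.00427). Averaged over all features of the gene the Per1 difference was -0.64, less than 2-fold but still called (limma adjusted p = 0.0249). Its partner Per2 went from 9.57, 9.46 and 9.27 to 9.05, 8.57 and 8.67 (log2 -0.67, SE 0.12, limma adjusted p = 0.021). The gapmer 3 levels of Per1, at 13.96, 14.10 and 13.90, lay with the controls. The difference between gapmers 1 and 3 was itself called for Per1 (log2 -1.16, limma adjusted p = 0.0164) and was not for Per2 (-0.49, limma adjusted p = 0.152).

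Per1 and Per2 were the 2 called members of 16 measured clock genes, and 10 of the 16 had all gapmer 1 arrays below all control arrays, beside 13.7% of all genes. The median of the list was -0.33, beside -0.03 for all genes. With the replicate block Nr1d2, a nuclear receptor of the second clock loop, and Ciart, a transcriptional repressor driven by the clock, were called too (limma adjusted p = 0.0293 and 0.0307). Nr1d2 stood at 11.62, 11.80 and 12.40 against 11.18, 11.39 and 11.51, and Ciart at 8.51, 8.75 and 8.77 against 8.01, 7.97 and 8.08. The output genes Tef, Hlf and Dbp, which encode PAR-bZIP transcription factors, differed by -0.47, -0.46 and -0.33. Arntl, which encodes the BMAL1 activator that runs in the opposite phase to the period genes, had the opposite sign, with 7.75, 7.75 and 7.66 in control arrays and 8.01, 8.48 and 7.99 with gapmer 1 (difference 0.44, SE 0.15, limma adjusted p = 0.129). Nr1d1 (0.23) and Per3 (-0.08) were close to control. The part of the hour of sampling in these differences was not tested.

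**Figure D3:**
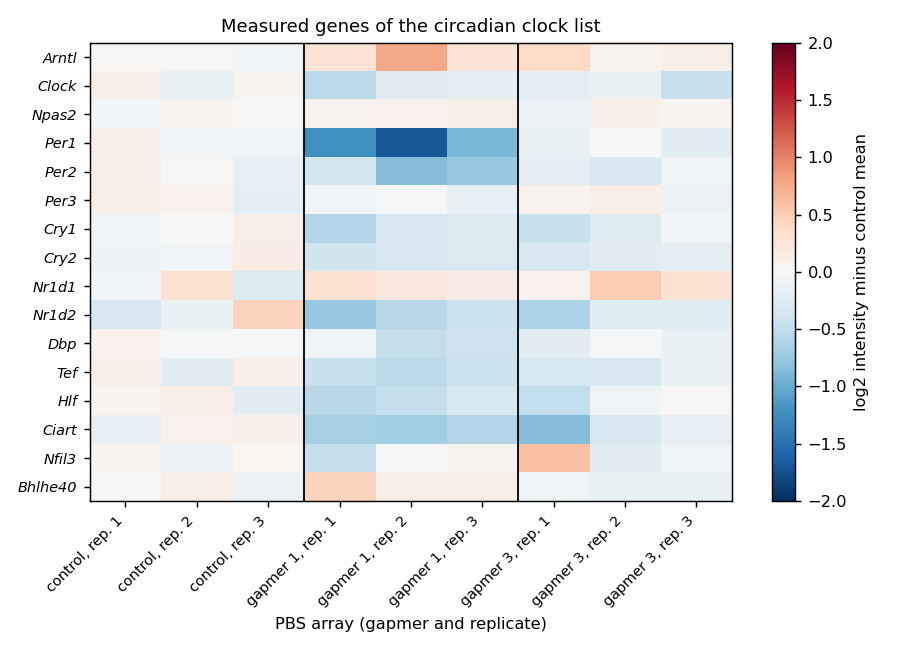
Level of the 16 measured clock genes in each PBS array (columns, gapmer and replicate), as log2 intensity minus the control mean of the gene (colour). Per1 is lowest in the 3 gapmer 1 arrays, Per2, Ciart, Nr1d2, Tef and Hlf are lower there as well, and Arntl is higher.

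The promoters of the clock genes are shown because the CLOCK and BMAL1 pair binds the E-box CACGTG, a sequence that reads the same on both strands. The 250 bases before each RefSeq start (GRCm38.p6) were searched for it. It was found in 5 of the 19 windows of 14 clock genes, beside 6.02% of all 32851 windows. By gene it was found in 4 of the 14, namely Per1, Ciart, Cry1 and Tef, beside 6.86% of all genes with a window. The other genes searched had no copy, among them Nr1d2, Hlf and Dbp, which were also lower with gapmer 1. Per2 is not among these 14 genes and was not searched. Per1 has 1 copy in the window of 1 of its 2 starts, at position -166 from it, in chr11:69098699-69098948 on the plus strand. Ciart has 3 copies, at positions -116, -58 and -44 from its start, in chr3:95882229-95882478 on the minus strand. Capitals mark the E-boxes. A match is a description of these letters, and no binding was measured.
Per1: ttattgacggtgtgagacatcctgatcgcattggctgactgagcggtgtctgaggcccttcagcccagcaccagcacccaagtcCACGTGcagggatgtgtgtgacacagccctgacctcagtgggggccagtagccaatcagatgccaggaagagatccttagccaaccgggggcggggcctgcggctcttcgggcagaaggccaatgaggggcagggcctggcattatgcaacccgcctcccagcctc
Ciart: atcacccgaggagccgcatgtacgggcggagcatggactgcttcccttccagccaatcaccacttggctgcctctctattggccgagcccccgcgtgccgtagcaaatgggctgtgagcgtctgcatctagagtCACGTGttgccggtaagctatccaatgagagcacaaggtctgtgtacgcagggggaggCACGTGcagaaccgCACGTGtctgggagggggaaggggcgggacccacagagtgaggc

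The next largest falls include regulators of endothelium and of the glucocorticoid response. Tsc22d3 (GILZ), a classic glucocorticoid-induced gene, stood at 14.53, 14.33 and 14.20 with control and 13.22, 13.25 and 13.59 with gapmer 1, a 2.00-fold fall (SE 0.24 on the log2 scale, limma adjusted p = 0.0421). Klf2, the shear-induced transcription factor of endothelium, fell 1.84-fold, from 14.75, 14.41 and 14.48 to 13.46, 13.56 and 13.97 (limma adjusted p = 0.0343). Rgcc, a cell cycle regulator of endothelium and other cells, fell by 0.82 (limma adjusted p = 0.036), and the Notch target Hey1 by 0.86, from 12.74, 12.76 and 13.23 to 12.17, 11.85 and 12.14 (limma adjusted p = 0.0356). The glucocorticoid list as a whole went both ways: of 14 measured genes 2 were called lower (Per1 and Tsc22d3) and 2 higher (Lcn2 and Cdkn1a), with a median of -0.10. None of 17 endothelial genes was called, with a median of -0.11. With gapmer 3 Tsc22d3 stood at 14.22, 14.04 and 14.16 and Klf2 at 14.46, 14.43 and 14.40, levels that lay among or next to those of the controls. The difference between gapmers 1 and 3 was -0.79 for Tsc22d3 and -0.77 for Klf2 and was called for neither (limma adjusted p = 0.268 and 0.149).

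**Figure D4:**
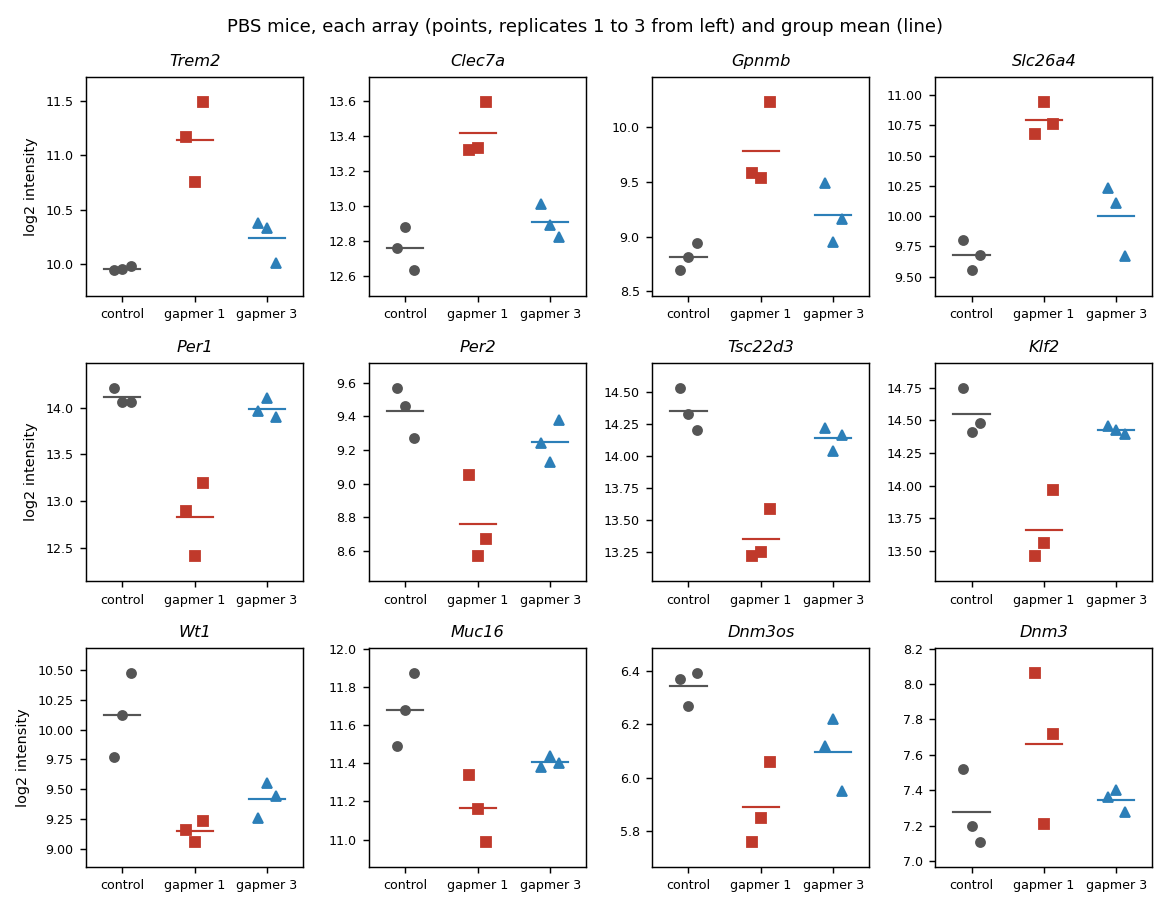
Log2 intensity (y axis) of 12 genes in each PBS array, with control in grey, gapmer 1 in red and gapmer 3 in blue, and lines at the group means. Gapmer 1 arrays lie apart from control arrays in 11 of the genes, and the groups overlap in Dnm3.

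Among markers of the mesothelium, the cell layer that covers the lung, 2 of 9 measured were called lower, beside 0.666% of all genes, and none higher. Wt1, its defining transcription factor, stood at 9.77, 10.12 and 10.47 with control and 9.16, 9.06 and 9.23 with gapmer 1, a 1.96-fold fall (log2 -0.97, SE 0.17, limma adjusted p = 0.0142). The surface mucin Muc16 fell by 0.52, from 11.49, 11.68 and 11.87 to 11.34, 11.16 and 10.99 (limma adjusted p = 0.0302). Lrrn4 was called too with the replicate block (limma adjusted p = 0.0196). In 6 of the 9 all gapmer 1 arrays lay below all control arrays, beside 13.7% of all genes, and the median was -0.25. In 1 of the 9, the keratin Krt19, which airway epithelium also makes, they lay above, at 13.95, 13.99 and 13.84 against 13.73, 13.79 and 13.43 (difference 0.27, limma adjusted p = 0.24). Msln, which encodes mesothelin, differed by -0.01 (13.42, 13.60 and 13.60 against 13.65, 13.46 and 13.47). Upk3a, a uroplakin, fell 1.73-fold with gapmer 1 (8.12, 7.75 and 8.12 against 7.35, 6.94 and 7.34, limma adjusted p = 0.0251).

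The remaining named falls came from mixed functions. Irx1, a homeobox gene of the developing airway, fell by 0.74 (14.30, 13.87 and 13.86 against 13.11, 13.10 and 13.60, limma adjusted p = 0.0257), chosen after its value was seen. Gprc6a, a receptor for basic amino acids, fell by 0.75, Saysd1 by 0.79 and the noncoding RNA A530016L24Rik by 0.92 (limma adjusted p = 0.0237, 0.021 and 0.0479). Lgr5, a Wnt co-receptor of stem and mesenchymal cells, was the 1 call of 24 Wnt genes (log2 -0.43, limma adjusted p = 0.0307), and the complement gene C2 the 1 call of 15 (log2 -0.31, limma adjusted p = 0.0459). With the replicate block the ligand gene Wnt10a was called higher as well (1.04, limma adjusted p = 0.0465, or 0.0738 without the block). Heat shock genes had a median of -0.30 with 4 of 11 below control without overlap, beside 13.7% of all genes, and none was called.

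Lists of responses that a nucleic acid drug can evoke in its own right had no call. They do not hold every gene of such responses, and Ccl6 and Pycard, given above, were called higher. None of 17 nucleic acid sensing genes, 22 interferon response genes, 28 cytokines and chemokines or 14 genes of RNase H and oligonucleotide uptake passed, with medians of 0.11, 0.09, 0.00 and 0.02. In the same order, 4, 3, 4 and 1 genes lay above control without overlap, beside 8.62% of all genes. Below control without overlap lay 2, 0, 1 and 2, beside 13.7%. Tlr9, the receptor for unmethylated DNA, stood at 10.04, 10.36 and 10.29 with control and 10.59, 10.42 and 10.65 with gapmer 1 (limma adjusted p = 0.148). Irf7, the interferon regulator, stood at 7.90, 7.91 and 7.69 against 8.68, 8.19 and 7.93, all above control, with the first array most so (limma adjusted p = 0.218). Lists with no call also include TGF-beta response (20 genes), contractile and smooth muscle (14), lung fibroblast (17), alveolar type 1 (14) and type 2 cells (15), airway epithelium (14) and proliferation (20). Without a call, all gapmer 1 arrays still lay above all control arrays in 9 of the 20 proliferation genes, 5 of the 15 type 2 cell genes and 5 of the 20 TGF-beta genes, beside 8.62% of all genes. The medians of these 3 lists were 0.09, 0.15 and 0.08. The surfactant gene Sftpc, the hallmark of type 2 cells, differed by -0.03.

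Muscle and fat also varied between these arrays. The skeletal muscle list lay at 11.13, 12.19 and 11.32 with control and, in replicates 2 and 3 of gapmer 1, at 10.89 and 10.96, with replicate 1 just above them. With gapmer 3 it lay at 11.22, 7.74 and 12.12. None of its 20 genes was called. Myh2, a fast-fibre myosin, stood at 11.81, 13.89 and 13.02 against 8.10, 6.95 and 11.23, while Acta1 and Ckm differed by 0.36 and 0.06. The adipose list lay at 11.94, 12.73 and 12.20 with control and 12.07, 11.18 and 11.38 with gapmer 1, and all 11 of its genes had a negative difference, with a median of -0.78 and none called. Their part, and that of the squamous tissue, in the results above was not tested beyond the covariate fits.

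Gapmer 3 in PBS mice shares the control arrays, and its 7 calls (0.0338%) are given for their own values. The largest were Spag11b, a beta-defensin-like gene of the epididymis and airway, which rose by 1.51, and Ptprs, a receptor phosphatase, which fell by 0.79. Ptprs stood at 13.29, 13.25 and 13.44 with control, 13.36, 13.32 and 13.42 with gapmer 1, and 12.56, 12.48 and 12.58 with gapmer 3. The difference between gapmers 1 and 3 was called for both (limma adjusted p = 7.96e-08 each). Ptger3, a prostaglandin E2 receptor, and Upk3a were called lower with either gapmer: Ptger3 stood at 7.64, 7.96 and 7.89 with control, 7.34, 6.92 and 7.21 with gapmer 1, and 6.73, 6.75 and 7.18 with gapmer 3. Set directly against each other, gapmers 1 and 3 differed in 12 genes (0.0579%). Of the genes called for gapmer 1 these included Trem2 (0.90 higher with gapmer 1, limma adjusted p = 0.0164), Itgax (0.44, limma adjusted p = 0.0178), 4833418N02Rik (0.92), Fxyd4, F7 and Per1. The lysosomal protease gene Ctss was also higher with gapmer 1 than with gapmer 3 (0.71, limma adjusted p = 0.0267). The count was 253 without gapmer 3 replicate 1. Among the gapmer 3 arrays it was the highest in the squamous list and also in the heat shock and immediate early lists. The cause of this shift was not tested.

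The bleomycin lungs give the same contrast in other mice, with 5 arrays a group and no array shared with the PBS groups. There 5.47% of genes were called higher with gapmer 1 and 5.08% lower. Of the 92 PBS rises 6 were also called higher in bleomycin lungs and 4 lower, with a median bleomycin difference of 0.06, beside 0.02 for all genes. Cideb, Rundc3a, Cited4, Mfsd13a, Ctsd and Atp6v0a1 were higher in both, and Cd300lf, Hvcn1, Pycard and Upk3bl went from higher to lower. Of the 138 PBS falls 4 were also called lower and 16 were called higher, with a median of 0.07. Upk3a was lower in both, by 0.79 and 1.46. Per2 was the reverse, with a fall of 0.67 in PBS and a rise of 0.41 in bleomycin lungs (limma adjusted p = 0.00852), as were Wt1 (0.43, limma adjusted p = 0.0345), Muc16 (0.29, limma adjusted p = 0.0315) and Irx1 (0.41, limma adjusted p = 0.0265).

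The change of the gapmer 1 difference with injury was tested as an interaction, which was called for 1597 genes (7.7%). It was called for 50 of the 92 rises and 111 of the 138 falls, genes that were chosen by their PBS difference, which the interaction also uses. For Trem2 the bleomycin levels were 13.10 ± 0.06 (SD, n = 5) with control and 12.91 ± 0.09 with gapmer 1, both far above the PBS levels. Its gapmer 1 difference was 1.19 in PBS and -0.19 in bleomycin lungs (interaction -1.38, SE 0.19, limma adjusted p = 0.0003). For Per1 the bleomycin levels were 13.77 ± 0.07 and 13.65 ± 0.30, and the differences were -1.28 and -0.11 (interaction 1.17, SE 0.24, limma adjusted p = 0.0081). For Sprr1a they were 11.18 ± 0.07 and 10.70 ± 0.16, both at the height of the PBS gapmer 1 arrays. The squamous list mean was 10.22 to 10.70 in bleomycin control arrays and 9.87 to 10.07 with gapmer 1.

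**Figure D5:**
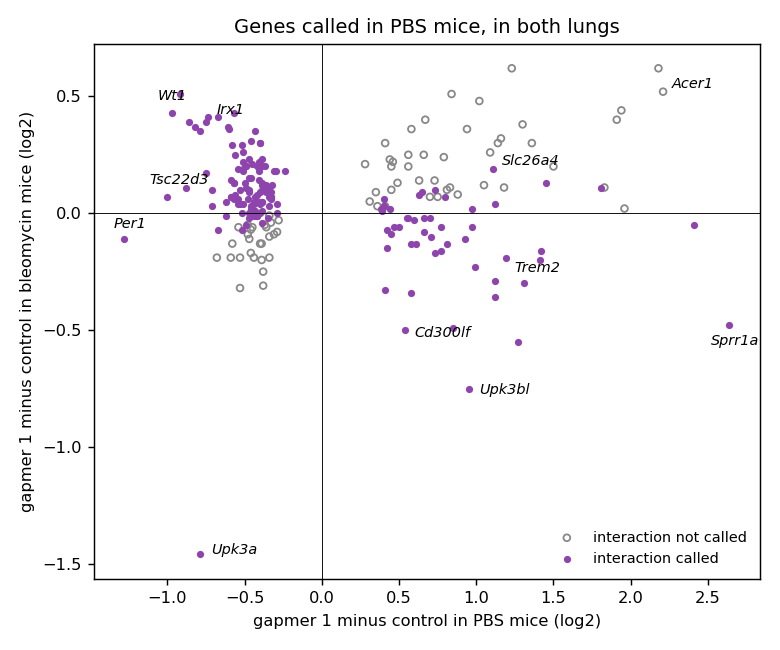
Gapmer 1 minus control in PBS mice (x axis) against the same in bleomycin mice (y axis), both log2, for the 230 genes called in PBS mice, filled where the interaction was called. The PBS falls lie mostly at or above 0 in bleomycin lungs (98 of 138 positive), and Upk3a is the one gene far below 0 on both axes.

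Some of the PBS rises are in genes that bleomycin raises. Genes that respond to bleomycin were taken from the 8 gapmer 3 arrays alone, as those called and past 2-fold. These arrays do not enter the PBS difference, but they do enter the spread estimate of the fit. Genes called among them tend to have a small spread there, which favours a call in PBS lungs as well. Of 188 such raised genes 14 were called higher with gapmer 1 in PBS lungs and none lower, which is 7.45% of the list, beside 0.444% of all genes, and 15.2% of the called rises. They were Ccl6, Cdkn1a, Clec7a, Ctsd, F7, Fxyd4, Gpnmb, Itgax, Lcn2, Lrg1, Mmp2, Psrc1, Slc26a4 and Trem2. All gapmer 1 arrays lay above all control arrays in 80 of the 188 and below them in 1, beside 8.62% and 13.7% of all genes. The median PBS difference of the 188 was 0.27, and the median gapmer 1 difference of the same genes in bleomycin lungs was -0.45. Of 48 genes that bleomycin lowered, Klf2 was called lower and none higher, 18 lay below control without overlap, and the medians were -0.24 in PBS and 0.41 in bleomycin lungs. With control the bleomycin response of Trem2 was 3.15 and that of Clec7a 1.52, against PBS differences of 1.19 and 0.66 with gapmer 1, all from the same PBS control arrays.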

How the data were processed

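Total RNA of whole mouse lung was measured on 24 one-colour Cy3 microarrays, of which 6 form the comparison. The deposited values are log2 intensities that the authors normalized between arrays by quantiles with limma, per the submitters' processing notes, and no further normalization was applied. Features with 1 gene symbol (31465 of 62976) gave 20728 genes, with symbols updated through RefSeq, and the feature with the highest mean over the 24 arrays stood for a gene. One linear model of the 24 arrays with 6 group means was fitted by lmFit and eBayes (R 4.3.3, limma version 3.58.1; 18 residual degrees of freedom), two-sided. P-values were Benjamini-Hochberg adjusted over the 20728 genes, and a gene was called under 0.05. This pooling takes the spread of all 6 groups as 1 estimate. The spread was not equal for the squamous genes. Their list mean ran from 6.73 to 8.94 in PBS control arrays and from 10.22 to 10.7 in bleomycin control arrays. With only the 9 PBS arrays in the fit, the limma adjusted p of Sprr1a was 0.235. In 20 data sets simulated for this comparison on 20728 genes, 67.2% of changes of 1.5-fold and 90.6% of 2-fold rises were recovered. Of the calls made there, 5.01% were false. The simulated noise was independent between genes and arrays and had the same spread in every group. The deposited arrays deviate together in part, as given below, so these rates need not hold for them.

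Same-numbered PBS control and gapmer 1 arrays deviated together from their group means (r = 0.103, 0.189 and 0.121 for numbers 1, 2 and 3). The fit with the replicate number as a block is therefore given where it changes a call. Arrays of different numbers, of gapmer 3 and of bleomycin mice were not compared in this way. The labels do not say what a shared number marks. The named genes were Dnm3os and Dnm3, the 10 largest called rises and falls whose groups do not overlap and whose mean is above the 25th percentile, up to 4 members of smallest p per list, and defining cell markers. The members and the 44 gene lists (642 measured entries) were chosen with earlier results of these data known.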

Additional observations from a re-analysis of the deposited data

Results flagged for a closer look

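The interaction of the limma fit was called for 13 of the 21 named genes tested, beside 7.7% of all genes. Apart from Dnm3os these genes were named for their large PBS difference, which the interaction subtracts, so the choice itself favours a call and the count supports nothing further. The values are the difference in bleomycin minus that in PBS lungs on the log2 scale. They were negative for Sprr1a (-3.12, limma adjusted p = 0.0184), 2610528A11Rik (-2.45, limma adjusted p = 0.044), Cers3 (-1.71, limma adjusted p = 0.0381) and Upk3a (-0.68, limma adjusted p = 0.0441). They were positive for the other 9. Among these were Per1 (1.17, limma adjusted p = 0.0081), Tsc22d3 (1.07, limma adjusted p = 0.032), Klf2 (0.99, limma adjusted p = 0.0194) and Wt1 (1.40, limma adjusted p = 0.000749). Hey1 had 1.25, Rgcc 1.19, A530016L24Rik 1.43, and Saysd1 and Gprc6a had 1.14 each, with limma adjusted p from 0.00184 (Gprc6a) to 0.00616 (A530016L24Rik).

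In the bleomycin gapmer 1 group 1 of the 5 arrays stood apart from the rest in Aqp3, at 10.45 against 10.14 to 10.19. In the same group 1 array stood apart in Acsbg1, at 8.39 against 8.76 to 8.89. Such gaps were looked for in 42 groups of 5 values, and chance alone gives about 1 in 20.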

How the results depend on the processing

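The number of genes called for gapmer 1 against control (230) was 732 with array weights and 68 with only the groups compared. It was 0 with only the 9 PBS arrays (3145 at an unadjusted limma p under 0.05). It was 424 with the RNA integrity number as a covariate and 423 with the replicate block. Leaving out 1 PBS control or gapmer 1 array in turn gave 10 to 684. With the level of the squamous, skeletal muscle or adipose list as a covariate, chosen after seeing the data, it was 4, 551 and 32. Gapmer 1 against gapmer 3 (12 genes) gave 161 with array weights, 1 with only the groups compared and 2 with only the 9 PBS arrays. It gave 5 with the RNA integrity number and 11 to 27 with 1 PBS control or gapmer 1 array left out. It gave 26 with a position trend removed and 253 without gapmer 3 replicate 1, both of them fits that were not planned. The other gapmer 3 arrays and the bleomycin arrays were not left out. The interaction (1597 genes) gave 3251 with array weights, and 313 and 305 with the squamous and adipose covariates. It gave 802 to 1933 with 1 PBS control or gapmer 1 array left out. Fits on fewer arrays also have fewer residual degrees of freedom. The cause of the shifts in these counts was not tested. The Dnm3os difference stayed negative and was called in none. The 20 largest named changes kept their direction in the 23 alternatives. Leaving out 1 array could not reverse them, since they were named for groups that do not overlap. The replicate block changed no other list's calls than those given. Precision is limited by 3 arrays a group and, for Dnm3os, by a signal near the low end of the scale.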
